A study of Mus musculus with 3 samples.

Results

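The 10 integrin subunits described here, *Itga4*, *Itgb7*, *Itgb1*, *Itga5*, *Itgav*, *Itgae*, *Itgal*, *Itgam*, *Itgb2* and *Itgb3*, were chosen by name for their place in the homing and tissue retention of mast cell progenitors (MCps). Every array probe carrying one of these gene names was taken, which gave 24 of the 41157 probes tested, or 10 of 27951 gene names. The samples were MCps grown from the marrow of 3 WT and 3 *p85α−/−* mice. The latter lack p85α, a regulatory subunit of PI3K encoded by *Pik3r1*. Mononuclear cells of both genotypes were kept in IL-3 (10 ng/mL) for 7 days, and cells double positive for KIT and the IgE receptor were sorted and then kept for 48 hours with 100 ng/mL of SCF, which binds KIT. Each of 3 Agilent arrays compared 1 WT culture, in Cy3, with 1 *p85α−/−* culture, in Cy5. The dyes were never swapped, so dye and genotype cannot be told apart in any value given. These are cultured cells from marrow and not MCps taken from tissue. Few cells were sorted, and their cDNA had been amplified by PCR before labeling. Strain and age of the mice are not given in the sources used here.

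Integrins are surface receptors made of an α and a β chain, and a chain reaches the surface in number only with its partner. MCps leave the marrow through the blood and enter the intestine by way of α4β7, which binds MAdCAM-1 and VCAM-1 on endothelium, while α4β1 and α5β1 bind VCAM-1 and fibronectin, αvβ3 binds vitronectin, αEβ7 binds E-cadherin, and the β2 integrins bind ICAMs. KIT and PI3K signaling can also raise the affinity of integrins that are already at the surface, which an mRNA measurement does not see.

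Over 43379 spots, the median signal of the WT channel was 76.1, 71.5 and 141.2 on replicates 1, 2 and 3, and that of the channel labeled *p85α−/−* was 210.9, 517.3 and 206.6. Well above background were 72.1%, 69.4% and 85.3% of spots for WT and 77.6%, 93.8% and 77.3% for *p85α−/−*. All levels below are log2 intensities after background correction and quantile normalization of the 6 channels, and each log2 ratio is that of *p85α−/−* over WT within an array. Levels of different probes cannot be compared with each other, and only 3 arrays limit the precision of every ratio. Across all probes, which are not independent replicates, the log2 ratios of replicates 1 and 2 had a Pearson r of 0.00881, those of 1 and 3 one of 0.17 and those of 2 and 3 one of −0.03.

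*Pik3r1*, the targeted gene, had log2 intensities at its brightest probe of 9.25, 8.89 and 8.36 in WT and 10.74, 8.86 and 8.69 in cultures labeled *p85α−/−*. At its next brightest probe the levels were 9.79, 8.82 and 8.99 against 8.75, 8.51 and 8.62. The mean log2 ratios were 0.59 ± 0.79 (SD, n = 3) for the first and −0.58 ± 0.41 for the second, and the 2 remaining probes had means of 0.32 and −0.04. The second was lower in every *p85α−/−* culture than in every WT culture, while the probe with a mean of 0.32 was higher in *p85α−/−* on all 3 arrays. The study describes loss of the protein in *p85α−/−* mast cells by western blot, in cells other than those on these arrays. The position of the deletion relative to these probes is not given in the sources used here, so they do not check the genotype, and all directions below are those of the labels.

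The mast cell label was checked against 14 marker genes, all of them found on the array. At the brightest probe, 13 of the 14 were well above background in every culture. The exception was *Ms4a2*, the β chain of the IgE receptor, which was well above background in 1 of 3 WT and in 3 of 3 *p85α−/−* cultures. *Kit*, whose protein was used for the sort, had log2 intensities of 10.10, 8.07 and 8.58 in WT and 11.55, 10.26 and 11.11 in *p85α−/−*. The mast cell chymase gene *Cma1* had 13.20, 12.21 and 14.59 in WT and 16.65, 15.52 and 14.93 in *p85α−/−*. A second *Cma1* probe had 12.08, 8.78 and 7.94 in WT and 12.07, 13.10 and 7.54 in *p85α−/−*, with overlap between the groups. At the brightest probe of both genes all *p85α−/−* cultures lay above all WT cultures. The summed level of the 14 markers on the log2 scale was 16.15, 15.30 and 15.61 in WT and 17.48, 17.19 and 16.79 in *p85α−/−*, again without overlap. In limma's test 4 of the 14, *Kit*, *Fcer1g*, *Cma1* and *Il1rl1*, were at least 1.5-fold higher in *p85α−/−* with p below 0.05 before adjustment, and 0 were lower, beside 3.14% higher and 2.08% lower over all gene names. Of the 14 means 13 were above 0 and 1, that of the chymase gene *Mcpt4*, was below (−0.89). *Fcer1a*, the α chain of the other receptor used for the sort, had log2 ratios of −2.99, 3.32 and 1.39. *Cma1* lost its call under 4 of 12 alternative limma fits, among them those without replicate 1 (1.83) and without replicate 2 (1.90). The call was also lost with loess and Aquantile normalization and when averaged over the probes of *Cma1*. More mast cells in a culture and more of these mRNAs per cell cannot be told apart here. The part of this difference in the integrin values below was not tested.

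All 10 integrin genes were detected, since the brightest probe of each was well above background in all 6 cultures. Of the 24 probes, 16 were so in all 6 cultures, and the other 8 were dim probes of *Itga4*, *Itgb1*, *Itgav* and *Itgam*. Between genotypes, 0 of the 24 probes met both criteria, a 1.5-fold difference and p below 0.05 before adjustment in limma's test. Over all 41157 probes tested, 2.78% met them with the higher level in *p85α−/−* and 1.66% with the lower. After Benjamini-Hochberg adjustment over all probes, 0 of the 24 and 0% of all probes were below 0.05, and no integrin probe had a value lower than 0.908. The mean log2 ratio was above 0 for 6 and below 0 for 4 of the 10 genes at their brightest probes. With median centring of the ratios in place of quantile normalization it was above 0 for 9, by the software's log ratio for 4, and without replicate 2 for 3. The median of the 10 means was 0.09, beside −0.07 over the brightest probes of all gene names and −0.05 over all probes. This integrin median was 0.69 with median centring, −0.02 with the software's processed signals, −0.07 with its log ratio and −0.42 without replicate 2. The SD of the log2 ratio between arrays had a median of 0.75 over the 24 integrin probes and 0.67 over all probes. On replicate 1 the ratio was above 0 for 4 of the 10 genes, on replicate 2 for 8 and on replicate 3 for 5.

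**Figure D1:**
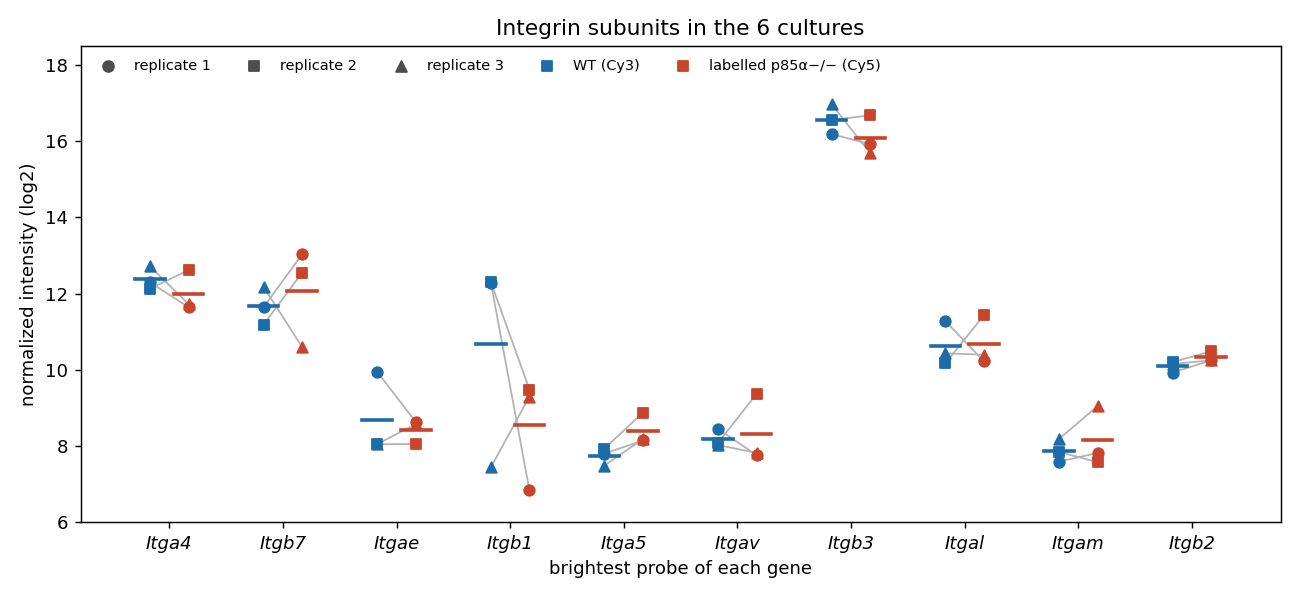
Normalized log2 intensity of the brightest probe of each integrin gene in the 3 WT (blue) and the 3 *p85α−/−* labeled cultures (red). Symbols mark the replicate, grey lines join the cultures hybridized to 1 array, and bars are group means (n = 3); levels of different genes come from different probes and cannot be ranked. WT and *p85α−/−* points do not overlap for *Itga5* and *Itgb2*, and the points of *Itgb1* spread from 6.84 to 12.30.

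*Itga4* encodes the α4 chain that pairs with β7 or β1. At its brightest probe the log2 intensity was 12.30, 12.13 and 12.71 in WT and 11.64, 12.61 and 11.72 in *p85α−/−*. Thus 2 *p85α−/−* cultures lay below all WT cultures and the culture of replicate 2 lay within their range. The mean log2 ratio was −0.39 ± 0.77 (SD, n = 3), with a 95% confidence interval from limma's fit of −1.53 to 0.75, and with median centring it was 0.78. With 1 replicate left out it ran from −0.82 to −0.09. The 5 other *Itga4* probes had means between −0.50 and 0.05. Probe positions come from annotation supplied with the array, without a stated genome build, and on chromosome 2 the brightest of the 6 probes lies last, from 79174249 to 79174308. Only 3 of the 6 probes were well above background in all 6 cultures.

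*Itgb7*, the β chain that makes α4 a gut homing receptor, has 1 probe, on chromosome 15 from 102202176 to 102202235. Its log2 intensity was 11.64, 11.19 and 12.18 in WT and 13.04, 12.55 and 10.59 in *p85α−/−*. The *p85α−/−* cultures of replicates 1 and 2 were above all WT cultures, whereas that of replicate 3 was below all of them. The log2 ratios were accordingly 1.39, 1.36 and −1.59, the mean was 0.39 ± 1.71, and the confidence interval ran from −1.78 to 2.56. Without replicate 3 the mean was 1.38, which met the criteria of fold and unadjusted p but not an adjusted p below 0.05 by limma's test, and without replicate 1 it was −0.11. The ratios of *Itga4* and *Itgb7* had the same sign on 2 of 3 arrays.

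*Itgae* encodes αE, known as CD103, which pairs with β7 alone. At the brighter of its 2 probes the level was 9.95, 8.04 and 8.05 in WT and 8.63, 8.05 and 8.58 in *p85α−/−*. The WT culture of replicate 1 was the highest of the 6, and the other 2 WT cultures were below all *p85α−/−* cultures. The mean log2 ratio was −0.26 ± 0.95 and became 0.36 with median centring. The other probe was steadier, with 7.64, 7.58 and 7.70 in WT and 7.38, 7.48 and 7.52 in *p85α−/−*. Here every *p85α−/−* culture was below every WT culture, by a mean log2 ratio of −0.17 ± 0.08 with an interval of −0.83 to 0.48. Both probes span an intron in the array's annotation, covering 986 and 1459 bases of chromosome 11.

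*Itgb1* encodes the chain shared by α4β1, α5β1 and αvβ1. At the brightest of its 3 probes the level was 12.29, 12.30 and 7.44 in WT and 6.84, 9.48 and 9.30 in *p85α−/−*. The WT cultures of replicates 1 and 2 were the highest, while the WT culture of replicate 3 was below 2 of the *p85α−/−* cultures, so the groups overlapped. The mean log2 ratio was −2.14 ± 3.70, the interval ran from −6.66 to 2.39, and without replicate 3 the mean was −4.14 and met the criteria of fold and unadjusted p, again without an adjusted p below 0.05. Without replicate 1 it was −0.48, and averaged over the 3 probes it was −0.47. The other probes did not have this pattern. A second probe, designed across an intron, had log2 ratios of 1.11, −1.19 and 0.06. The third is printed in 10 spots on each array and had log2 ratios of −0.05, 0.67 and 1.58, each the mean of 7 to 10 spots without an outlier flag. The spots of this probe differed little within an array, with SDs of 0.16, 0.12 and 0.08, and the SD between arrays was 0.82. It was well above background in 2 of 3 cultures of each genotype.

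*Itga5* encodes α5, which with β1 forms the fibronectin receptor of mast cells. Its single probe, on chromosome 15 from 103333409 to 103333468, gave 7.80, 7.93 and 7.49 in WT and 8.15, 8.88 and 8.19 in *p85α−/−*. All 3 *p85α−/−* cultures were above all 3 WT cultures. The log2 ratios of 0.34, 0.95 and 0.70 gave a mean of 0.66 ± 0.30, the interval was −0.08 to 1.41, and limma's test gave an adjusted p of 0.908. With median centring the mean was 1.01 and the probe met the criteria of fold and unadjusted p, with an adjusted p of 0.648. It was above 0 under all 11 alternative fits run for it. Of the integrin probes this one had the lowest unadjusted p of the fit, although it did not pass.

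*Itgav* encodes αv, which pairs with β1 and β3 and binds vitronectin and other matrix proteins. The brightest of its 4 probes had 8.45, 8.08 and 8.03 in WT and 7.76, 9.37 and 7.82 in *p85α−/−*. The *p85α−/−* culture of replicate 2 was above all WT cultures and those of replicates 1 and 3 were below them. The mean log2 ratio was 0.13 ± 1.03. A second probe was not well above background in any WT culture and was so in *p85α−/−* on replicate 2 alone. Another dim probe was lower in *p85α−/−* on all 3 arrays, with a mean of −0.32 ± 0.32, and was well above background in 1 culture of each genotype.

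*Itgb3* encodes β3, which forms the vitronectin receptor with αv and the fibrinogen receptor with αIIb. Its brighter probe had 16.19, 16.55 and 16.97 in WT and 15.92, 16.68 and 15.68 in *p85α−/−*. The *p85α−/−* cultures of replicates 1 and 3 were below all WT cultures and that of replicate 2 was among them, so the mean log2 ratio was −0.47 ± 0.73 with an interval of −1.57 to 0.62, and it was 0.59 with median centring and −1.45 with loess and Aquantile normalization. By the software's log ratio it was −0.91. The other probe had 8.68, 11.28 and 10.57 in WT and 11.33, 10.26 and 11.96 in *p85α−/−*. Its log2 ratios of 2.65, −1.03 and 1.40 had the opposite sign to those of the brighter probe on every array, and their mean was 1.01 ± 1.87. Without replicate 2 that mean was 2.02 and met both criteria, with an adjusted p of 0.609 in limma's fit. Averaged over both probes the log2 ratio was 0.27. The ratios of *Itgav* and *Itgb3* at their brightest probes had the same sign on 3 of 3 arrays. Of the 8 αβ pairs formed by the 10 genes and named here, this was the one for which that held, and for 5 pairs the signs were the same on 1 array.

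*Itgb2* encodes the chain common to the leukocyte integrins, and *Itgal* and *Itgam* encode its partners αL of LFA-1 and αM of Mac-1. *Itgb2* had 9.92, 10.20 and 10.15 in WT and 10.25, 10.49 and 10.25 in *p85α−/−*. The groups did not overlap, yet the difference was small, with a mean log2 ratio of 0.24 ± 0.12 and an interval of −0.43 to 0.90. With median centring the mean was 1.04 and met the criteria of fold and unadjusted p, the adjusted p being 0.648. It was above 0 under all 11 alternative fits run. *Itgal* had 11.28, 10.17 and 10.43 in WT and 10.22, 11.43 and 10.40 in *p85α−/−* at its brighter probe. The *p85α−/−* culture of replicate 2 was the highest of the 6, and the groups overlapped. The mean log2 ratio was 0.06 ± 1.16 (0.92 with median centring), and the other probe had −0.09 ± 0.49. *Itgam* had 7.59, 7.85 and 8.18 in WT and 7.82, 7.58 and 9.05 in *p85α−/−*. The *p85α−/−* culture of replicate 3 was the highest of the 6 and the others overlapped, with a mean of 0.27 ± 0.57. The second *Itgam* probe was not well above background in any WT culture and was so in *p85α−/−* on replicate 3 alone.

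**Figure D2:**
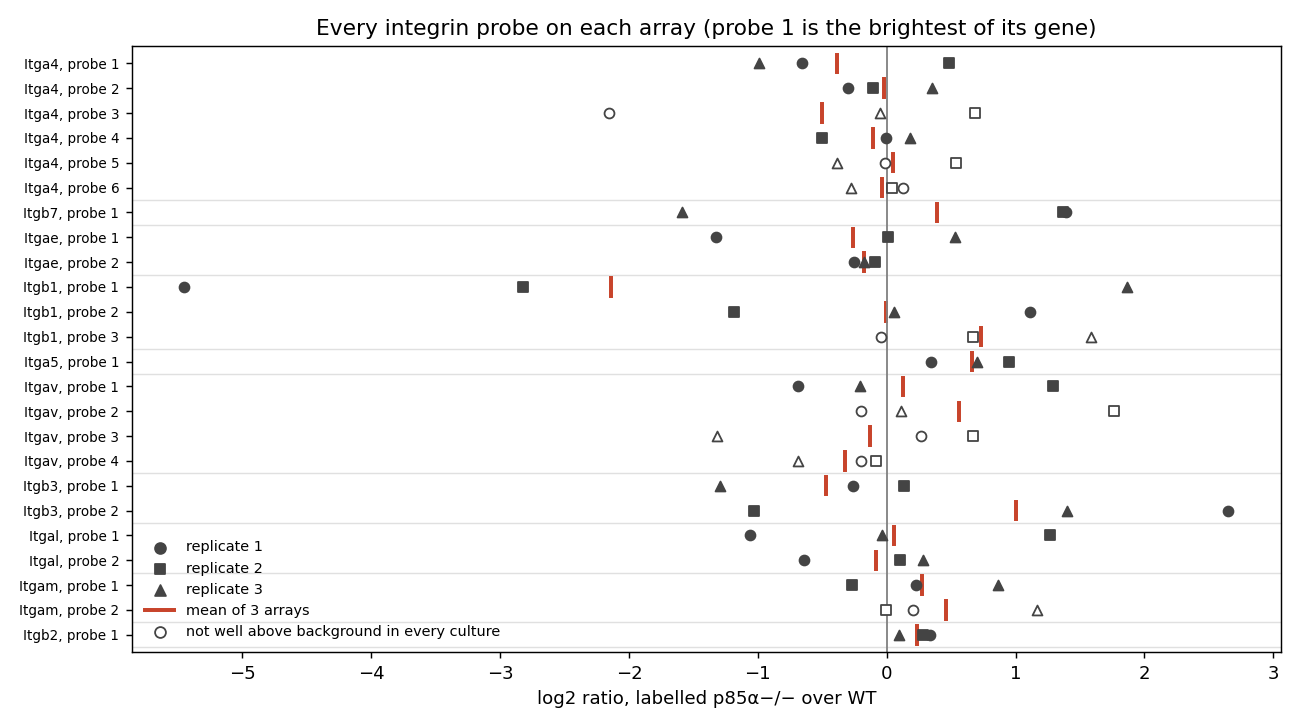
Ratio (log2) of *p85α−/−* to WT per array for all 24 integrin probes, numbered within a gene from the brightest. Symbols mark the replicate, red bars the mean of 3 arrays, and open symbols probes that were not well above background in every culture. Probe means lie between −2.14 and 1.01, and the 2 probes of *Itgb3* and the 3 of *Itgb1* lie on different sides of 0.

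Of the 24 probes, 4 had the same sign on all 3 arrays, the probes of *Itga5* and *Itgb2* higher in *p85α−/−* and 1 probe each of *Itgae* and *Itgav* lower. Over all probes tested, 12.5% were higher and 13.3% lower on all 3 arrays. These 4 were also the integrin probes whose groups did not overlap, 2 in each direction, beside 4.54% of all probes without overlap and higher in *p85α−/−* and 5.94% lower. Taken by the brightest probe of each gene, 2 of 10 integrin genes had 1 sign on all arrays, beside 25.9% of all gene names, and 2 of 10 had groups without overlap, beside 10.9%. For the 7 genes with several probes, the probes had means on 1 side of 0 in 2, *Itgae* and *Itgam*.

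Of the 17 other integrin subunits, 16 were found on the array. Their median log2 ratio was −0.23, with 13 of 16 below 0, beside a median of −0.07 over the brightest probes of all gene names, and with median centring it was 0.06. Of the 16, 1 met both criteria with a lower level in *p85α−/−* and 0 with a higher one, whereas with median centring 2, *Itga2b* (1.96) and *Itga1* (1.04), were higher and 0 lower. Over all gene names these shares were 2.08% lower and 3.14% higher with quantile normalization. With median centring 2692 of 41157 probes passed, 2453 of them higher. The gene was *Itgb4*, the partner of α6 in the laminin receptor of epithelia, with 9.97, 10.96 and 10.60 in WT and 9.15, 10.15 and 9.35 in *p85α−/−*. Each *p85α−/−* culture was lower than the WT culture on its array, though the groups overlapped, and the mean was −0.96 ± 0.25 (adjusted p of 0.908, limma). The call was lost under 7 of 12 alternative limma fits. Among these the mean was −0.28 with median centring, −0.57 averaged over its probes, and from −1.05 to −0.82 in the others. *Itga2b*, whose αIIb pairs with β3, had log2 ratios of −0.28, 2.21 and 1.11 and a mean of 1.01 ± 1.25, or 0.41 without replicate 2. *Itga1*, a collagen receptor chain, had 0.39 ± 0.56. Its mean was 0.15 without replicate 3, 0.69 without replicate 2 and 0.11 averaged over its probes. The lowest means among the rest belonged to *Itgb6* (−1.68 ± 1.64) and *Itga10* (−1.48 ± 1.95). Neither had the same sign on all arrays at its brightest probe. Other probes of *Itgb6* had means of −0.26 and 0.71, the latter higher in *p85α−/−* on every array but well above background in only 1 WT culture. Averaged over its probes *Itgb6* had −0.41. *Itgb6* was −2.58 and passed without replicate 1, and it was −0.98 without replicate 3. *Itga10* was −2.58 and passed without replicate 3, and it was −0.71 without replicate 2.

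The 39 genes that activate integrins or link them to actin were all found, and their median log2 ratio was 0.02, or 0.68 with median centring. Of these, 4 met both criteria and were higher in *p85α−/−*, and 0 were lower, beside 3.14% and 2.08% of all gene names. Without replicate 2 there were 9, of which 6 were higher, and without replicate 3 there were 6, of which 4 were higher. Of all 41157 probes, 3165 passed without replicate 2, 1503 of them higher, and 1748 without replicate 3, 1222 of them higher. *Sharpin*, whose product binds α chains and holds β1 integrins inactive, had 7.90, 9.80 and 8.93 in WT and 10.56, 11.41 and 13.25 in *p85α−/−*. *Rap1a*, a GTPase that drives integrin activation through talin, had 8.32, 7.19 and 7.38 in WT and 11.14, 8.33 and 9.93 in *p85α−/−*. *Fyb*, which encodes the adaptor ADAP, had 9.60, 9.33 and 10.44 in WT and 10.74, 10.78 and 11.80 in *p85α−/−*. All *p85α−/−* cultures were above all WT cultures for these 3 genes and for *Parvg*, the parvin of blood cells that binds integrin-linked kinase. The mean log2 ratios were 2.86 ± 1.37 for *Sharpin*, 2.17 ± 0.90 for *Rap1a*, 1.31 ± 0.16 for *Fyb* and 1.59 ± 0.70 for *Parvg*. In limma's fit *Fyb* had an adjusted p of 0.859 and the other 3 had 0.908. *Sharpin* and *Rap1a* kept the call under all 11 and 12 alternative limma fits run, *Fyb* lost it under 2 of 12 and *Parvg* under 1 of 11, that without replicate 1. By the methods' t-test with the fold criterion, 2 genes of the list passed unpaired and 1 paired, in place of 4. The 2 other probes of *Rap1a* had means of 0.37 and −0.04, and those of *Fyb* 2.57 and −0.35. *Rap1b* at its brightest probe was higher on replicates 1 and 3 alone (1.55 ± 2.24). This mean was 0.57 without replicate 3 and 2.77, which passed, without replicate 2. Other probes of *Rap1b* had means of −0.17 and −0.02, and averaged over its probes it had 0.45. *Actn4*, an actin crosslinker, had 1.09 ± 0.85 and passed with median centring (1.87) and without replicate 2 (1.52). Without replicate 3 its mean was 0.68. At the other end were *Rasgrp2* (−1.57 ± 2.41, and −0.18 without replicate 2), the exchange factor for RAP1, and the kinase gene *Fgr* (−1.19 ± 0.95). Other probes of *Rasgrp2* had means of 0.33 and −0.47. The mean of *Fgr* was −0.77 without replicate 2 and −0.69 with median centring.

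Ligands and counter-receptors were measured in the same cells, although their usual source is endothelium, epithelium and matrix. All 13 were found, with a median log2 ratio of −0.14 that became 0.20 with median centring. *Fgb*, the fibrinogen β chain, alone met both criteria and was higher, beside 3.14% of all gene names higher and 2.08% lower. Its log2 ratios were 1.32, 1.28 and 1.01, so that every array showed a higher level in *p85α−/−*, although the groups overlapped, and the mean was 1.20 ± 0.17 (adjusted p of 0.908, limma). The call was lost without replicate 1, at a mean of 1.15, and without the replicate block. *Cdh1*, encoding the E-cadherin that αEβ7 binds, had a mean of 1.45 ± 1.12 and *F11r*, a partner of LFA-1, one of 0.24 ± 1.56. *Icam2* had −1.11 ± 1.80, and −0.10 without replicate 2. Fibronectin (*Fn1*) had −0.80 ± 0.99, with 0.01 under median centring and −0.23 without replicate 3. Other probes of *Fn1* had means of −0.57 and 0.07.

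Among 19 other homing receptors, all found, the median log2 ratio was 0.18. It was 0.80 with median centring, 0.77 with the software's log ratio, 0.65 with its processed signals and 0.68 without replicate 2. The chemokine receptor gene *Cxcr3* passed with the lower level in *p85α−/−* and 0 passed with the higher, whereas under median centring, and likewise without replicate 2, 1 gene passed with the higher level and 0 with the lower. The shares over all gene names were 2.08% lower and 3.14% higher with quantile normalization of all 3 arrays. Of 41157 probes, 2692 passed with median centring, 2453 of them higher, and 3165 without replicate 2, 1503 of them higher. *Cxcr3* had 8.60, 9.40 and 11.48 in WT and 7.79, 8.27 and 8.72 in *p85α−/−*, which overlapped by 1 culture. The mean was −1.57 ± 1.05 (adjusted p of 0.908, limma), and the call was lost under 4 of 11 alternative limma fits, among them those without replicate 2 (−1.78) and without replicate 3 (−0.97). *Spn*, the sialomucin CD43, had 1.67 ± 2.67, but 0.25 without replicate 3, and *Ccr3* had 1.53 ± 2.49, the latter from replicate 1 with a log2 ratio of 4.40. *Pecam1* had −0.55 ± 1.44 and *Cd34*, a sialomucin of progenitors and mast cells, −0.13 ± 2.89, and with median centring these became 0.11 and 1.14. *Ccr1* had no probe well above background in any culture.

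Markers of other cell types that the sort could have let through were also read. Of 12 neutrophil markers, 11 were found, 8 were well above background in all 6 cultures at the brightest probe, and *S100a8* and *S100a9* met both criteria, higher in *p85α−/−*, beside 3.14% of all gene names. Of the 11, 7 had mean log2 ratios above 0 and 4, *Prtn3*, *Ltf*, *Ngp* and *Csf3r*, below 0. Those not well above background throughout were *S100a8*, *Lcn2* and *Csf3r*. Their summed level was 13.41, 14.29 and 13.25 in WT and 16.11, 12.89 and 17.84 in *p85α−/−*. The *p85α−/−* cultures of replicates 1 and 3 stood above the rest, and the brightest gene, *Mpo*, had log2 ratios of 2.90, −3.37 and 5.39. *S100a9* had ratios of 3.56, 0.49 and 3.61, and *S100a8* 2.65, 0.39 and 3.37. Without replicate 1 the call was lost for both genes, at means of 2.05 and 1.88, and without replicate 3 at 2.03 and 1.52. It was also lost for both without the replicate block, and for *S100a8* with loess and Aquantile normalization. *Itgam* and *Itgb2*, which neutrophils also express, were measured in these same cultures, and the part of neutrophil mRNA in their values was not tested.

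Of the 5 remaining marker lists reported here 0 genes passed, beside 3.14% higher and 2.08% lower over all gene names. *Epx*, with a mean of 0.84, passed without replicate 3 (1.88) and had 0.04 without replicate 1. *Cd4*, with a mean of −0.74, passed without replicate 2 (−1.39) and had −0.20 without replicate 3. The summed level of 4 basophil markers was 15.36, 15.00 and 13.59 in WT and 14.93, 13.59 and 15.26 in *p85α−/−*, with *Il3ra* as the brightest, and that of 4 eosinophil markers, of which *Siglecf* and *Il5ra* were dim in 1 WT culture each, was 10.07, 10.05 and 11.01 against 11.89, 10.74 and 10.94, with *Epx* as the brightest. For 13 macrophage markers, led by *Marco* and with *Mrc1* and *C1qc* not well above background throughout, it was 13.32, 13.43 and 13.10 against 12.96, 12.96 and 13.55. For 6 dendritic cell and MHC class II markers, led by *H2-Ab1*, it was 11.89, 12.00 and 11.77 against 11.73, 11.52 and 11.94. All of these overlapped between genotypes. The 6 T and NK cell markers, led by *Cd4*, had 12.31, 11.94 and 13.24 against 11.51, 12.34 and 11.69, again with overlap. The part of these cells in the integrin values was not tested.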

How the data were processed

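For each array the authors deposited the output of Agilent Feature Extraction 9.5.1.1. The deposited intensity values are mean spot signals and local background medians, without normalization, beside the software's processed intensity values and flags. The red to green ratio in these deposited files is on the log10 scale and is the software's own. A deposited table of log10 ratios, with medians of 0, 0.0245 and −0.00306, was used only to check its probes, since it held the scanner's value (tolerance 1e-05) for 40929, 190 and 226 of 40929 probes with 1 spot.

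In R 4.3.3 with limma 3.58.1, background was removed from mean signals by normexp with an offset of 50, followed by quantile normalization of all 6 channels on the log2 scale. Control and outlier spots were then dropped and spots of a probe averaged. The log2 ratios were fitted with lmFit and eBayes, array pairing included, with Benjamini-Hochberg adjustment over 41157 probes. The procedure was tested on simulated data. All arrays were on 1 slide with 1 scan day.

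A gene is given by its brightest probe. Of 147 genes in 4 gene lists and 7 marker lists, 145 were found, by array name or through RefSeq accessions and synonyms. Another 2 planned marker lists, for platelets and B cells, were left out of the text after their values were seen. Besides the integrins, the text names genes passing both criteria, the 2 highest and 2 lowest means among the other genes well above background in each gene list, and the brightest gene of each marker list; markers not well above background, mast cell and neutrophil markers with means below 0, *Fcer1a* and *Ccr1* were added after their values were seen. Members and lists were chosen with earlier results of these data known. Alternatives covered normalization, background, dim probes, outlier spots, pairing, the methods' t-test, left-out replicates and the mean over a gene's probes.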

Additional observations from a re-analysis of the deposited data

How the results depend on the processing

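Under every alternative fitted probe by probe, 0 probes reached an adjusted p below 0.05 (0 to 0 with a replicate left out). This was not counted for the mean over a gene's probes. The scaling of the arrays, the choice of test and the left-out replicates each moved values, and the cause was not tested.

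With median centring of the ratios instead of quantile normalization, the log2 ratio reversed for *Itga4* (0.78), *Itgae* (0.36), *Itgb3* (0.59), *Fn1* (0.00958), *Pecam1* (0.11), *Cd34* (1.14), *Il3ra* (0.93), *Marco* (0.84), *H2-Ab1* (0.31) and *Cd4* (0.31). The median of all probes moved from −0.05 to 0.09, and of the 2692 probes then passing 1.5-fold and unadjusted p, 2453 were higher in *p85α−/−*, a share of 91.1% in place of 62.6%. Integrin probes passing became 2 (*Itga5*, *Itgb2*) and the integrin median 0.69. List medians became 0.0591 (other subunits), 0.68 (activation), 0.20 (ligands) and 0.80 (homing receptors), and 2 other subunits and 2 ligands passed, all higher in *p85α−/−*. The integrin and list medians are over brightest probes, and the median over the brightest probes of all gene names was not computed with median centring. The median of all probes is therefore not a like baseline for them.

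The software's log ratio gave −0.10 for *Itgav*, −0.0342 for *Itgal* and 0.77 for the homing receptor median. The software's processed signals gave −0.0681 for *Itgal*, −0.40 for the median of other subunits, of which 0 passed, and 0.65 for that of homing receptors. Averaging a gene over its probes gave −0.0150 for *Itgal* and 0.27 for *Itgb3*.

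Without the replicate block, that is without array pairing, 1809 probes passed (1007 higher), with 0 integrin probes, 0 other subunits, 0 ligands and 0 homing receptors among them, and the calls of *S100a8* and *S100a9* were lost.

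The methods' t-test, unpaired, put 1755 probes under an unadjusted p of 0.05 (1 of them an integrin probe), 1125 of them past 1.5-fold (608 higher), and the paired one 1501 and 819 (477 higher). After Benjamini-Hochberg adjustment both left 0. The unpaired test passed 0 other subunits, 2 activation genes, 0 ligands and 0 homing receptors. The paired one passed 1 other subunit, 1 activation gene, 1 ligand and 0 homing receptors.

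With 1 replicate left out, 1555 to 3165 probes passed, 0 to 2 of them integrin probes, and the integrin median ran from −0.42 to 0.23. Log2 ratios ran from −0.82 to −0.0861 for *Itga4*, −0.78 to −0.0668 for *Itgb3*, −0.11 to 1.38 for *Itgb7*, −0.45 to 0.54 for *Itgav*, −0.66 to 0.27 for *Itgae*, −0.55 to 0.61 for *Itgal* and −0.0221 to 0.55 for *Itgam*. They ran from −0.63 to 0.86 for *F11r*, −1.22 to 0.21 for *Pecam1*, −1.29 to 1.48 for *Cd34*, −1.34 to 0.52 for *Il3ra*, −0.24 to 4.15 for *Mpo* and −0.80 to 0.44 for *Marco*. Calls gained by named genes outside the 10 integrins, besides those given above, were *Itga2b* without replicate 1 (1.66), *Fgr* without replicate 3 (−1.71), *Cdh1* with median centring (1.95) and without replicate 2 (2.10), and *Mpo* without replicate 2. List medians ran from −0.35 to −0.19 (other subunits, 1 to 3 passing), −0.18 to 0.16 (activation, 3 to 9), −0.34 to −0.10 (ligands, 0 to 2) and 0.0923 to 0.68 (homing receptors, 0 to 2).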
